A study of Mus musculus with 6 samples.

Results

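The cytosolic ribosomal protein genes of mouse embryonic stem cells were compared between cells carrying Trim71 R783H and wild-type (WT) cells. Members were the protein-coding genes with a symbol of Rpl or Rps followed by a digit, Rplp0 to Rplp2 and Rpsa, without the Rps6 kinases, Rps19bp1 and pseudogenes. Of the 27179 gene rows with read counts, 88 were members: 46 core genes of the large subunit, 31 core genes of the small subunit, the 4 paralogs Rpl3l, Rpl22l1, Rpl39l and Rps27l, and 7 further paralogs or retrogenes. Both groups carried a FLAG tag on Trim71, had the ES-E14TG2a background and grew on gelatin in medium with Lif and the inhibitors CHIR99021 and PD0325901 (2i). Each group had 3 libraries of oligo(dT)-selected RNA, lettered A, B and C. The labels do not say whether a letter stands for a clone, a culture or an RNA preparation, so the p-values measure only the spread between these libraries, which may be technical. Trim71 is an RNA-binding protein of stem cells and early embryos, and R783H is a single amino acid change in it.

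A cytosolic ribosome holds a single copy of most of its proteins, and their mRNAs are among the most abundant of a growing cell. These mRNAs start with a short pyrimidine tract (the 5′ terminal oligopyrimidine or TOP motif), through which mTOR signalling controls their translation. Most of the genes have processed pseudogenes elsewhere in the genome that are close to identical to the mRNA, so short reads can align to several places.

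The libraries held 20894277 to 29079670 counts, and the biological coefficient of variation over all genes was 5.45%. Trim71 itself was at 144 ± 12.8 CPM (counts per 1000000 counts of the library, scaled by TMM factors; SD, n = 3) in R783H, and WT had 140.5 ± 16.4 CPM. Its log2 fold change of 0.03 was not called by edgeR's quasi-likelihood test (Benjamini-Hochberg adjusted p = 0.743). A substitution need not change the mRNA level, so this value does not check the labels. The 9 naive stem cell markers summed to 6561 to 6632 CPM in R783H and 6822 to 6912 CPM in WT. The 7 primitive endoderm markers summed to 10.3 to 11.1 CPM against 5.18 to 7.62 CPM, the 6 neural markers to 14.02 to 17.4 CPM against 9.51 to 10.6 CPM with Dcx at 0 in all 6 libraries, the 7 fibroblast markers to 2.18 to 3.13 CPM against 3.28 to 3.86 CPM, and the 6 markers of 2-cell-like cells to 2.54 to 3.16 CPM against 2.69 to 3.23 CPM. Single genes weighed heavily in these sums, and each list held genes that went the other way. Means in R783H and WT were 13.5 and 8.51 CPM for Sox1 but 0.0669 and 0.285 CPM for Pax6. They were 6.68 and 3.19 CPM for Gata4 but 0.102 and 0.667 CPM for Sox7. Thy1 had 0.194 and 1.31 CPM, but Col1a2 had 1.22 and 0.944 CPM. The part of the marker differences in the results was not tested. In bulk RNA, fewer cells of a type and less RNA per cell cannot be told apart.

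More ribosomal protein genes were higher than lower in R783H, by small amounts. Of the 88 members, all of which passed the filter on low counts, 42 were higher, 11 were lower and 35 were not called at an adjusted p under 0.05 (edgeR's quasi-likelihood test, Benjamini-Hochberg over 14199 genes). The called share was 60.2% of the members beside 64.5% of all genes tested. Higher calls made up 47.7% of the members beside 33.5% of all genes, and lower calls 12.5% beside 30.9%. The median log2 fold change was 0.15, beside 0.03 over all genes tested, and the members ranged from -0.84 to 1.15. A change of 1.5 times or more was called in 12 members, beside 3497 of the 14199 genes tested. A change of 2 times or more was called in 2 members, Rpl23a and Rps27, beside 1289 of all genes tested. Changes of these sizes were thus a smaller share of the members than of all genes. Without any overlap in CPM between the groups, 44 members were higher and 11 lower, beside 35.0% and 33.1% of all genes tested.

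The excess of higher over lower calls rested in part on single libraries. Relative to the WT mean, the median member stood at 0.06 (log2) in R783H A, 0.25 in R783H B and 0.12 in R783H C. Each WT library was set against the other WT libraries, which gave 0.05 in WT A, 0.02 in WT B and -0.09 in WT C, where only 11 of the 88 members were above 0. Without R783H B there were 40 higher and 20 lower calls among the 88 members, beside 34.7% and 34.3% of all genes tested. The member median was then 0.09 beside 0.02 over all genes. A further refit left out both R783H B and WT C. This pair was chosen after their member values were seen, in the direction that shrinks the difference. There were 38 higher and 26 lower calls among the 88 members, beside 34.9% and 34.3% of all genes tested. The medians of members and of all genes were 0.04 and 0.01.

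**Figure D1:**
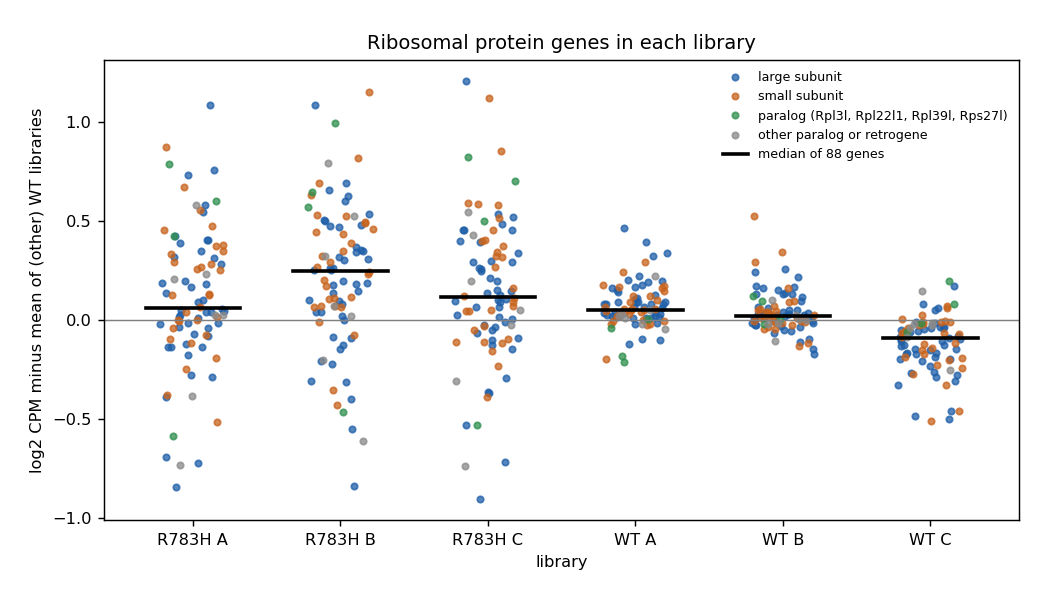
Each point is a ribosomal protein gene in a library, as log2 CPM minus the mean of the WT libraries (for a WT library, of the other WT libraries), and the black bar is the median of the 88 genes. The medians run from 0.06 to 0.25 in R783H and from -0.09 to 0.05 in WT, with R783H B highest and WT C lowest.

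As a share of all counts in a library, the members took 2.99% in R783H A, 3.26% in B and 3.00% in C, against 2.74%, 2.71% and 2.61% in the WT libraries in the same order. Every R783H library was above every WT library, and the difference was 0.397 percentage points (3.08 ± 0.154% against 2.69 ± 0.0688%, SD, n = 3). Without R783H B it was 0.309 points. After TMM scaling, which allows for the few genes that take many counts, the members summed to 30011 ± 1694 CPM in R783H and 27656 ± 798 CPM in WT, a ratio of 1.09.

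Both subunits held genes of each kind of call. In the large subunit 19 of 46 core genes were higher, 5 were lower and 22 were not called, with a median log2 fold change of 0.10. In the small subunit 17 of 31 were higher, 3 were lower and 11 were not called, with a median of 0.19. The called share was 52.2% in the large and 64.5% in the small subunit, beside 64.5% of all genes tested. All members with an Rpl symbol, paralogs and retrogenes included, held 56.9 ± 0.430% of the members' counts in R783H and 58.2 ± 0.325% in WT. The groups did not overlap in this share, which was not computed for the core genes alone. Leaving out R783H B moved the large subunit median to 0.05 and the small subunit median to 0.10, and leaving out WT C moved the large subunit median to 0.05.

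**Figure D2:**
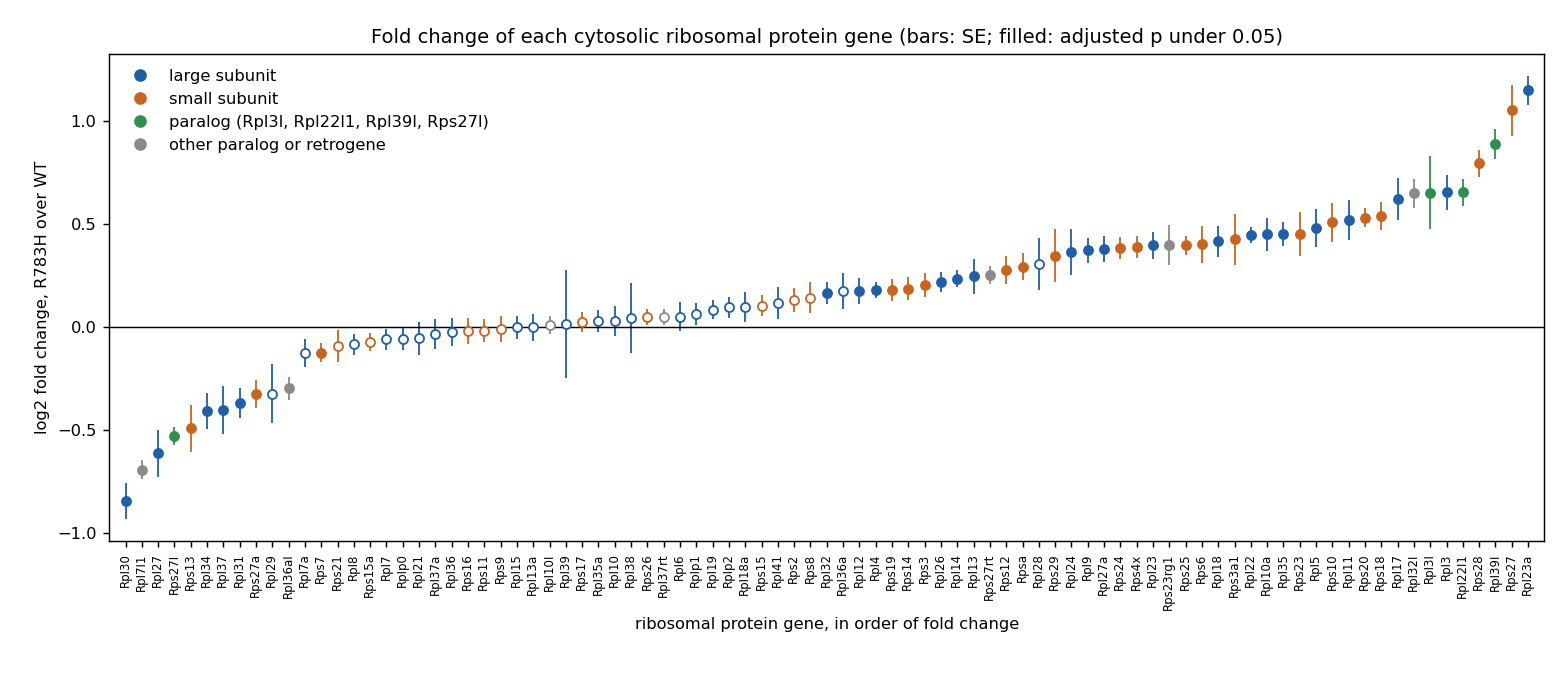
Each point is the log2 fold change (R783H over WT) of 1 of 87 members with its standard error, in order of size and coloured by subunit or paralog class, filled where the adjusted p was under 0.05. The series runs from -0.84 for Rpl30 to 1.15 for Rpl23a, and genes of both subunits lie along its whole length.

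The highest risers came from different places in the ribosome. Rpl23a, which lines the mouth of the peptide exit tunnel and docks factors that meet the nascent chain, was at 41.6, 41.7 and 45.4 CPM in R783H A, B and C, and the WT libraries had 18.3, 18.8 and 21.0 CPM. The groups lay far apart, with a log2 fold change of 1.15 (SE 0.0687, adjusted p = 2.06e-07, edgeR's quasi-likelihood test). On GRCm38 the gene lies at chr11:78180932-78183584 on the minus strand, holds 3 small nucleolar RNA genes in its span and overlaps exons of Tlcd1, and the strand setting of the counts is not given. Rps28, at the mRNA exit of the small subunit, was at 47.7, 52.8 and 54.2 CPM in R783H against 30.3, 30.7 and 28.2 CPM in WT, a log2 fold change of 0.79. Rpl3, which reaches towards the peptidyl transferase centre, was at 122, 118 and 106 CPM against 75.8, 80.8 and 63.3 CPM, a log2 fold change of 0.65. In both genes all R783H libraries were above all WT libraries. Rpl17, another tunnel protein, was at 19.5, 17.8 and 15.1 CPM against 11.8, 11.6 and 10.5 CPM (log2 fold change 0.62), and Rps18, in the head of the small subunit, was at 324, 383 and 324 CPM against 249.5, 236 and 223 CPM (0.54). Neither overlapped between the groups.

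The core genes that fell most had near-identical copies elsewhere in the genome, as did the 6 that rose most and 68 of the 77 core genes. Rpl30, a large subunit protein, was at 9.75, 8.77 and 8.34 CPM in R783H and at 15.3, 17.1 and 15.7 CPM in WT. The groups did not overlap, with a log2 fold change of -0.84 (SE 0.0858, adjusted p = 7.48e-06, edgeR's quasi-likelihood test). Rpl30 lies at chr15:34440505-34443640 on the minus strand of GRCm38, and its exons overlap a small nucleolar RNA gene and D730044K07Rik. Rpl27, also of the large subunit, was at 26.2, 38.2 and 28.6 CPM against 48.8, 46.8 and 46.4 CPM, a log2 fold change of -0.61, with R783H B nearest to WT. Rps13, a small subunit protein, was at 3.39, 3.63 and 3.75 CPM against 5.2, 4.73 and 5.25 CPM (-0.49). Rpl34 was at 12.6, 10.4 and 11.95 CPM against 15.9, 14.7 and 15.9 CPM (-0.41), and Rpl31, of the exit tunnel, was at 16.7, 17.6 and 16.9 CPM against 22.3, 23.6 and 20.1 CPM (-0.37). In each of these the WT libraries were all above the R783H libraries. Rpl37 was at 62.4, 88.4 and 84.2 CPM against 111, 109.6 and 90.3 CPM (-0.40), and its groups came close to each other.

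For 14 members the table also has rows under the gene's own symbol with a pseudogene suffix, and these were summed with the member's row after its values were seen. Of the 4 of these members called lower, Rpl34 summed to 238 ± 3.11 CPM in R783H and 226 ± 6.47 CPM in WT (log2 ratio 0.08), most of it in the row of Rpl34-ps1 at 217 ± 3.33 and 204 ± 6.94 CPM. The sums of Rpl31 and Rps13 had log2 ratios of 0.18 and -0.05 with overlapping groups, and that of Rps27a had -0.05, also overlapping. So in none of these 4 was the sum below WT without overlap, unlike the member's own row. Among the risers, Rpl17 summed to a log2 ratio of 0.49 without overlap and Rpl5 to 0.25 with overlap, both below the member's own row. Rps12 and Rps19 summed to 0.45 and 0.23 without overlap, above their own rows at 0.28 and 0.18. Rpl13 summed to 0.26 with overlap, beside 0.24 in its own row.

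Grouped by place or role in the ribosome, most lists held both called and uncalled genes. For comparison, 33.5% of all genes tested were higher and 30.9% lower, and of all members 47.7% and 12.5%. Both genes of the 5S ribonucleoprotein, whose free form binds Mdm2 and so bears on p53, rose: Rpl5 had a log2 fold change of 0.48 and Rpl11 of 0.52. Rpl5 was at 48.3, 50.3 and 39.5 CPM in R783H and 36.0, 32.6 and 30.4 CPM in WT, with no overlap. Of the 9 exit tunnel genes 6 rose (66.7%) and Rpl31 fell (11.1%). Of the stalk genes, which recruit the elongation factors, Rpl12 alone was called (0.17, with overlapping groups, and lost in 7 of 18 alternative settings), while Rplp0, Rplp1 and Rplp2 had values of -0.06, 0.06 and 0.10 that were not called. The values of Rplp0 and Rplp1 change sign with the scaling or with R783H B left out. At the mRNA entry and exit of the small subunit, Rps3 (0.21) and Rps28 rose, and Rps2 (0.13) and Rps26 (0.05) were not called. Rps27a, made as a fusion with ubiquitin, fell by 0.32, from 35.4, 34.0 and 31.2 CPM in WT to 25.7, 26.1 and 28.5 CPM in R783H. Of 18 genes mutated in Diamond-Blackfan anemia, an inherited red cell failure, 11 rose (61.1%) and 4 were not called, with a median of 0.28. Rpl27, Rpl31 and Rps7 of this list fell (16.7%). The Rps7 call (-0.13) was lost in 9 of 18 alternative settings.

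The 4 named paralogs replace or accompany a core protein in certain tissues. Their relation to the core gene can be seen in the first 90 coding bases, read from GENCODE transcripts on GRCm38. These are shown because the retrogene Rps27rt is identical to Rps27 there. In the same window Rps27l differs from Rps27 at 24 bases and Rpl39l from Rpl39 at 10. Capitals mark bases that differ from the core gene.
Rps27: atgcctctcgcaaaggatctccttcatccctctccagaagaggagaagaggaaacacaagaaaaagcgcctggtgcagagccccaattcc
Rps27rt: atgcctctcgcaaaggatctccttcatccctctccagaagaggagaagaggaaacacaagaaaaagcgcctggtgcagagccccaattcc
Rps27l: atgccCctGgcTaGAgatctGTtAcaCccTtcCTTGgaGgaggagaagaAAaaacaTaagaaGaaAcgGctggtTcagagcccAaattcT
Rpl39: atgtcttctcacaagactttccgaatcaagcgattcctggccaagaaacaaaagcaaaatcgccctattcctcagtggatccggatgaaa
Rpl39l: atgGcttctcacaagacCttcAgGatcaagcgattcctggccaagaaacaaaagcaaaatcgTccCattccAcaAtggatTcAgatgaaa

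Over the whole coding sequence Rps27l matched Rps27 at 76.2% of 252 aligned bases, with no shared run beyond 11 bases. Rpl39l matched Rpl39 at 85.0%, with a longest shared run of 38 bases. Rpl3l matched Rpl3 at 74.3% and Rpl22l1 matched Rpl22 at 71.2%. Rps27rt matched Rps27 at 252 of 252 coding bases, and the transcripts share an unbroken run of 341 bases out of the 345 of Rps27.

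Rps27l, a target of p53 in DNA damage, fell while its core gene was called higher. Rps27l was at 159, 173 and 165 CPM in R783H and at 239, 239.8 and 237 CPM in WT. The groups were clearly apart, with a log2 fold change of -0.53 (SE 0.0436, adjusted p = 1.68e-06, edgeR's quasi-likelihood test). The Rps27 row was at 33.8, 41.2 and 40.2 CPM against 19.7, 21.4 and 14.3 CPM, a log2 fold change of 1.05. Rps27 lies at chr3:90212522-90213651 and Rps27rt at chr9:114982366-114982739, both on the minus strand of GRCm38. The Rps27rt row, with an identical coding sequence, stood far above Rps27 in WT at 257 ± 1.98 CPM and rose by 0.25. The sum of Rps27 and Rps27rt, which does not depend on how reads were split between those rows but does depend on whether shared reads were counted at all, was 345 ± 16.5 CPM in R783H and 276 ± 5.55 CPM in WT, a log2 ratio of 0.32. Rps27 took 10.04%, 11.3% and 11.98% of that sum in R783H and 7.05%, 7.67% and 5.30% in WT. The sum thus changed by less than the Rps27 row alone.

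Rpl39l, expressed in male germ cells and stem cells, rose by 0.89 (SE 0.0727, adjusted p = 1.55e-06, edgeR's quasi-likelihood test). It was at 30.9, 35.7 and 31.6 CPM in R783H and at 17.3, 18.5 and 17.2 CPM in WT, without overlap. Its core gene Rpl39 had only 12 to 27 counts in a library, with 0.865, 0.740 and 0.912 CPM in R783H against 0.941, 0.979 and 0.562 CPM in WT. The groups overlapped, so no change in Rpl39 was detectable at this depth. Rpl22l1, which can stand in for Rpl22, was at 52.0, 53.7 and 55.9 CPM against 30.9, 36.1 and 35.4 CPM (log2 fold change 0.65). Rpl22 was at 594, 622 and 616 CPM against 453, 453 and 441 CPM (0.44), so both were higher in every R783H library. Rpl3l, the form of heart and skeletal muscle, was at 1.90, 2.15 and 2.03 CPM against 1.14, 1.26 and 1.45 CPM (0.65), a low level in both groups. Rpl3 had the same log2 fold change.

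**Figure D3:**
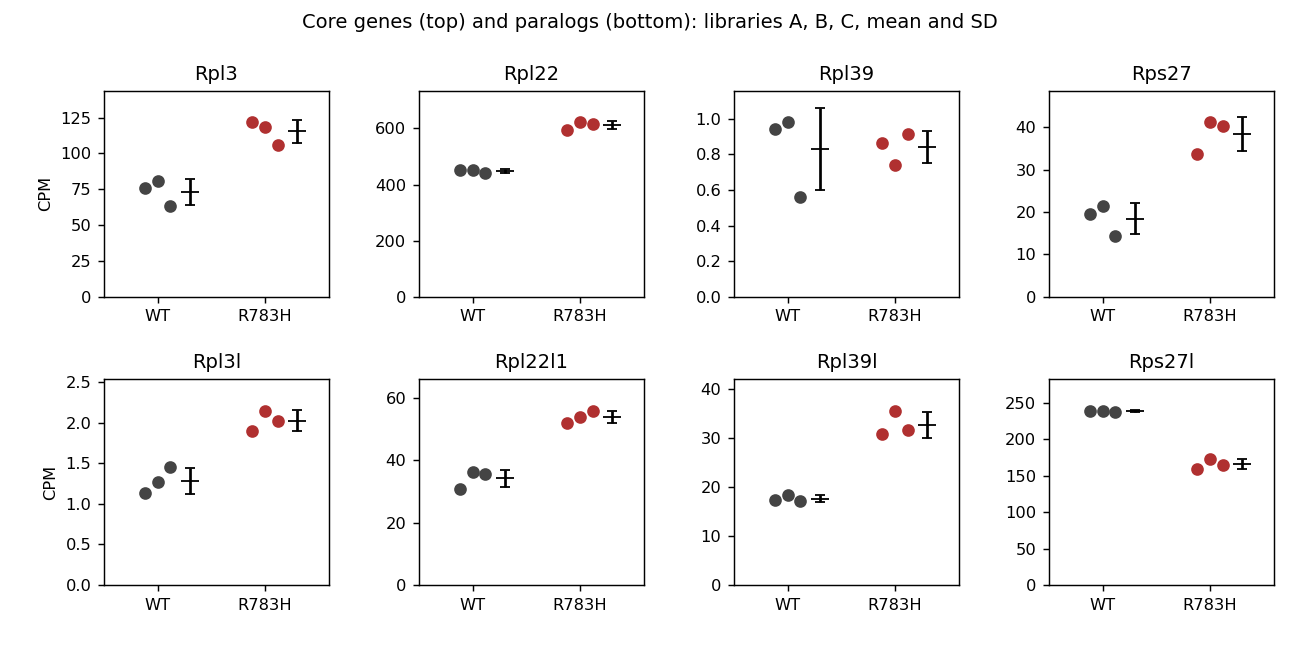
CPM of the 4 core genes (top row) and of their paralogs (bottom row) in libraries A, B and C of WT and R783H, with the mean and SD beside them; each panel has its own axis from 0. Rps27l is lower in every R783H library, Rpl3l, Rpl22l1 and Rpl39l are higher, and Rpl39 overlaps between the groups.

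Of the 7 other paralogs, 3 rose (42.9%), 2 fell (28.6%) and 2 were not called, beside 33.5% higher and 30.9% lower of all genes tested. Rpl7l1, a nucleolar relative of Rpl7, was at 267, 290.4 and 265 CPM in R783H and 448, 444 and 438 CPM in WT. It fell by 0.69 (SE 0.0454, adjusted p = 3.63e-07, edgeR's quasi-likelihood test) with no overlap, and no other gene shares a near-identical stretch with it. Rpl7 was not called (-0.06). Rpl36al, a close relative of Rpl36a, fell by 0.30, Rpl32l rose by 0.65 and Rps23rg1 rose by 0.40. Rps23rg1 shares a near-identical stretch with 6 other genes, among them Rps23, which was also called higher (0.45). The part of shared reads in its rise was not tested. Rpl10l, the autosomal relative of the X-linked Rpl10, was not called: R783H had 129 ± 2.46 CPM and WT had 128 ± 2.74 CPM. Rpl37rt shares a run of 248 bases with Rpl37 and was not called (0.05). The sum of Rpl37 and Rpl37rt was 617 ± 22.1 CPM in R783H and 624 ± 15.2 CPM in WT, a log2 ratio of -0.02, whereas the Rpl37 row alone fell.

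Per kilobase of transcript, core members in WT ran from 1.35 CPM per kb for Rpl39 to 3065 CPM per kb for Rpl8, a ratio of 2267, although their proteins are needed in nearly equal numbers. The highest were Rpl8, beside the peptidyl transferase centre, Rplp1 of the stalk at 2391 CPM per kb, and Rpl41, a very short basic peptide, at 1976 CPM per kb. The lowest after Rpl39 were Rps13 at 8.59 and Rpl29 at 9.59 CPM per kb. In R783H the order had the same ends, with 1.37 CPM per kb for Rpl39 and 2892 for Rpl8. None of Rpl8 (-0.08), Rplp1 and Rpl41 (0.12) was called, but Rplp1 and Rpl41 were called higher with library size alone (0.14 and 0.20) and with a length and GC offset (0.24 and 0.26). Rpl8 was called higher with the offset (0.09) and lower without R783H B (-0.16). The low levels went with copies: Spearman's rho between the number of other genes with a near-identical stretch (at least 98% over at least 100 bases) and WT CPM per kb was -0.61 across the 77 core genes, which share libraries and depth. The same number had a rho of 0.05 with the log2 fold change. Multiple alignment was not stated in the sources used here, and its part in these levels was not tested.

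**Figure D4:**
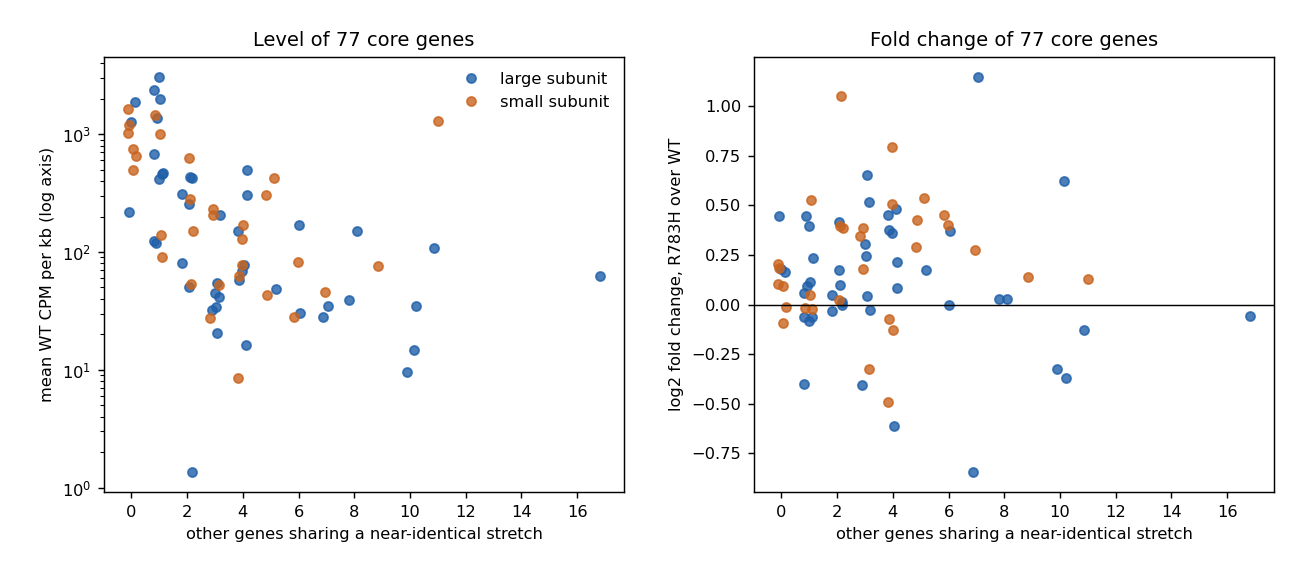
Left, mean WT CPM per kb (log axis) of the 77 core genes against the number of other genes with a near-identical stretch; right, their log2 fold change against the same number (points are spread sideways for legibility). Rpl8, the highest, has 1 such gene and Rps2, also high, has 11, while fold changes spread to both sides of 0 at most numbers.

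There were 9 core genes with no near-identical gene, among them Rpl4, Rpl22, Rpl32, Rps3, Rps14 and Rps15. They had 5 higher and 0 lower calls (55.6% and 0%), beside 33.5% and 30.9% of all genes tested. Their median was 0.16, with a range of -0.09 to 0.44. Rpl4, of the exit tunnel, was at 2207, 2219.5 and 2146 CPM in R783H and at 1959, 1922 and 1926 CPM in WT. The groups did not overlap, but the log2 fold change was 0.18. The other 68 core genes had 31 higher and 8 lower calls (45.6% and 11.8%) and ranged from -0.84 to 1.15. The 26 least counted core genes had 13 higher and 6 lower calls (50% and 23.1%). Among the 26 most counted core genes 10 were called higher and 0 lower, and the higher share of 38.5% was near that of all genes. Of these 26 most counted genes, and of the 9 without a near-identical gene, 0 were lower at an unadjusted p under 0.05 in edgeR's quasi-likelihood test, DESeq2 or limma-trend. Most of the 9 are also among the 26, so these are not separate observations. The 9 had a median mean count of 22070, beside 2361 for the other 68, so a lack of copies went with high counts. The absence of lower calls rested on R783H B. Without it, 2 of the 9 genes without a near-identical gene were called lower, beside 34.3% of all genes. Of the 26 most counted genes, 6 were called lower in that fit. Core members with a small nucleolar RNA gene in their span (30 of 77) had 15 higher and 3 lower calls (50% and 10%) with a median of 0.15. Those without (47) had 21 and 5 (44.7% and 10.6%) with a median of 0.12.

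Gene length moved with the comparison. Member transcripts had a median of 751 bases beside 2809 bases over all genes tested, and across 13067 genes Spearman's rho between length and log2 fold change was 0.25. With length and GC content fitted as an offset, the member median was 0.26 beside -0.03 over all genes, so that the gap between them was 0.30, against 0.12 without the offset. There were 62 higher and 11 lower calls among the members, beside 31.1% and 37.8% of all genes. The cause of the length trend was not tested.

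Start sites of 68 of the 88 members, with 80 promoters, were found in RefSeq's table for GRCm38.p6, which gives 250 bases before and 50 after each start. A run of 6 or more pyrimidines was sought from 10 bases before to 20 bases after the start. It was present in 53.8% of the member promoters and in 28.7% of all 32851 promoters. Such a run need not begin at the start, as the TOP motif does. The share was 22 of 41 promoters of members called higher, 5 of 11 of those called lower and 16 of 28 of those not called. Windows of these 30 bases were picked to show members with and without such a run in each direction, with the longest pyrimidine run in capitals.
Rps27 (chr3:90213629-90213658, minus strand, higher): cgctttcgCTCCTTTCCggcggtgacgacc
Rps18 (chr17:33955646-33955675, minus strand, higher): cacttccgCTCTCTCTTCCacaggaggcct
Rps28 (chr17:33824543-33824572, minus strand, higher): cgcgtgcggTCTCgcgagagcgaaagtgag
Rpl34 (chr3:130730318-130730347, minus strand, lower): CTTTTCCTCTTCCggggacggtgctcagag
Rpl31 (chr1:39367841-39367870, plus strand, lower): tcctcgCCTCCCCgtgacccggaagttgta
Rpl37 (chr15:5116603-5116632, plus strand, lower): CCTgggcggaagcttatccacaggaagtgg

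The windows of Rps28 and Rpl37, which moved in opposite directions, hold no run of 6, and the other 4 do. The Rpl37 window, set by the RefSeq start, ends before that gene's start in GENCODE at chr15:5116645. In the full promoters, on either strand, CGGAAG (the ETS core) was in 57.5% of members and 16.9% of all, and GGGCGG (the Sp1 box) in 57.5% and 35.7%. CTCTTTC was in 26.3% and 8.16%, ATGGCGG (the YY1 core) in 17.5% and 4.06%, and TATAAA in 10% and 13.6%. CGGAAG was in 9 of 11 promoters (9 genes) of members called lower, 19 of 41 of those called higher and 18 of 28 of those not called; these shares were not tested against each other.

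Ribosomal proteins with other symbols lie outside the rule. Rack1, a small subunit scaffold, rose by 0.14 with overlapping groups, and Fau was not called (0.24). Rps4l, which RefSeq lists as a transcribed pseudogene, fell from 884 ± 35.3 to 444 ± 32.6 CPM.

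Genes of the mitochondrial ribosome mostly fell. Of 77 tested Mrpl and Mrps genes 61 were lower and 1 was higher, with a median of -0.33. A list of 15 chaperones, assembly factors and importins, some of them general importins, had 11 lower and 1 higher, with a median of -0.34. The lowest were Grwd1, a chaperone of Rpl3, at -0.95, and Ltv1 and Bccip at -0.54 and -0.52. Of 20 other TOP transcripts 35% rose and 55% fell, beside 33.5% and 30.9% of all genes tested. Among them the elongation factor subunit Eef1d, the histone chaperone Nap1l1 and Tpt1 fell by 0.88, 0.71 and 0.68. Eef2 and Eef1a1, the most abundant of the list, rose by 0.46 and 0.33 without overlap. The list summed to 20455 to 22403 CPM in R783H and 19574 to 20128 CPM in WT. Of 16 regulators of TOP mRNAs 5 rose, with Tsc1 at 0.62, and 5 fell, with Rheb at -0.48, which is 31.3% each way and close to the shares over all genes. A list of 12 transcription genes, not all of which act on ribosomal protein genes, had 2 that rose (16.7%) and 6 that fell (50%). Among them Myc was at 19.96 ± 1.11 CPM in R783H against 65.4 ± 2.33 CPM in WT, a log2 fold change of -1.71.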

How the data were processed

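The authors deposited whole-number read counts for 27179 Entrez genes in 6 libraries; their differing totals are those of raw counts. CASAVA 1.4, HISAT2, SAMtools and genome build mm10 are named in the submitters' processing notes; the counting tool, its strand setting and its handling of reads with several alignments are not given in the sources used here. Symbols were matched through RefSeq for 25275 of the 27179 rows. Counts were filtered with filterByExpr (minimum count 10, minimum total 15), scaled by TMM and tested with edgeR 4.0.16's quasi-likelihood test, Benjamini-Hochberg adjusted over 14199 genes, with calls at an adjusted p under 0.05 (R 4.3.3). All fold changes are R783H over WT. The test was run on simulated data, where it called 83 of 97 genes changed 2-fold, 50 of 99 changed 1.25-fold and 9 of 13809 unchanged. Few genes were changed in the simulation, whereas 64.5% were called in the data, so these rates may not carry over. Library totals of 20894277 to 29079670 put 3 counts at 0.0998 to 0.149 CPM. Transcript lengths and coding sequences came from GENCODE on GRCm38, and near-identical genes from BLAST 2.17.0. The text names the listed paralogs and their core genes, the 6 called core genes with the largest change each way, the 3 highest and lowest per kilobase, role lists, and up to 3 called genes in each outside list. Eef2 and Eef1a1 were added for their abundance. The 9 core genes without near-identical genes, Rps4l and library effects were singled out after values were seen. The members and lists were chosen with earlier results of these data known. Alternatives were RLE, upper quartile and library size scaling, other filters, DESeq2 1.42.0, limma-trend (limma 3.58.1), a replicate block, a length and GC offset, equal depth, and leaving out libraries. Some genes are not reported here by name.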

Additional observations from a re-analysis of the deposited data

How the results depend on the processing

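Of 53 called members, 35 of 42 higher and 10 of 11 lower calls were kept in every setting tried; Rps7, Rpl32, Rpl12, Rps19, Rpl13, Rps29, Rpl24 and Rps3a1 were lost in at least 1. Leaving out libraries gave 37 to 43 higher and 10 to 26 lower calls, a member median of 0.0402 to 0.18, a large subunit median of -0.00308 to 0.15 and a small subunit median of 0.10 to 0.21; the lowest medians and the 26 lower calls came without both R783H B and WT C, which was chosen after seeing the data. Over all genes tested, the fits with libraries left out called 29.2% to 34.9% higher and 27.0% to 34.3% lower. With library size alone, the large subunit median was 0.18. In that setting 55 members were higher and 10 lower, beside 40.0% and 25.4% of all genes. That scaling put the median of all genes at 0.11, beside 0.03 with TMM and 0.01 with RLE. With the length and GC offset the member, large and small subunit medians were 0.26, 0.23 and 0.29, and with the replicate block added 0.26, 0.23 and 0.29; the cause was not tested. With the replicate block alone 45 members were higher and 12 lower, beside 34.1% and 31.1% of all genes, and the member median was 0.15. Same-letter libraries correlated at -0.07 to 0.09 in their deviations from the group means, and libraries of different letters at -0.13 to 0.13. With 3 libraries per group, these values cannot decide whether the letters pair the libraries. Uncalled genes changed sign: Rpl10l (-0.0113 with RLE and DESeq2, -0.031 to 0.0248 with libraries left out), Rpl39 (-0.0072 with RLE, -0.0049 with DESeq2, -0.196 to 0.166 with libraries left out), Rplp0 (0.0213 with library size alone, 0.0095 with the offset and 0.0093 with block and offset), Rpl8 (0.0857 with the offset, with or without the block), and, with libraries left out, Rplp1 (-0.0432 to 0.0874), Rplp2 (-0.0104 to 0.125) and Rpl41 (from -0.051). Of the 35 uncalled members, 31 were called in at least 1 setting. Depth limits Rpl39 and Rpl3l most, at 12 to 61 counts a library.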
